A study of Mus musculus with 12 samples.

Results

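The transcripts described here encode AMPA receptors and the membrane proteins that travel with them. They are 10 genes of the 15759 entries in the table, taken by symbol: the 4 pore-forming GluA subunits (Gria1, Gria2, Gria3 and Gria4), 3 transmembrane AMPA receptor regulatory proteins or TARPs (Cacng2, Cacng3 and Cacng8), 2 cornichons (Cnih2 and Cnih3) and Gsg1l. All 10 were present and all 10 passed the minimum mean of 10 normalized counts. The genes were listed with the genotype comparisons of these data already known, and were in this sense selected on the measured LFC of SCA1 KI against WT, in particular that of Gsg1l in the cortex. Their direction and size of change, their adjusted p and their counts beside those of all tested genes are descriptions. None of these lends independent support.

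SCA1 KI mice carry an expanded polyglutamine tract in Atxn1 (154Q on one allele, 2Q on the other) in the endogenous gene, so the mutant protein is made wherever the gene is normally active. The model mimics spinocerebellar ataxia type 1, and the question was how the transcriptome of the cortex changes beside that of the cerebellum. Whole cortex and whole cerebellum of SCA1 KI mice and wild-type (WT) littermates on the C57BL/6J strain were dissected at 12 weeks of age, giving 3 libraries of poly-adenylated RNA in each of the 4 groups. The libraries are named by the letters or digits of their columns: B, C and D (WT) and A, E and F (SCA1 KI) for cortex, and 2, 4 and 6 (WT) and 1, 3 and 5 (SCA1 KI) for cerebellum. The cerebellar libraries came from an earlier experiment, so region and experiment cannot be told apart. Values are DESeq2-normalized counts, that is, the reads of a library over its size factor. In bulk tissue, fewer cells of a type and less RNA per cell cannot be told apart.

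AMPA receptors are tetramers of GluA subunits that carry most fast excitatory transmission. The subunit mix sets their conductance: GluA2 makes the channel nearly impermeable to calcium, because its transcript is edited at a pore codon by the enzyme ADAR2 (Adarb1). TARPs bring receptors to the surface and hold them at the postsynaptic density, cornichons slow their closing, and GSG1L slows their recovery from desensitization and dampens their currents. In the cerebellum, stargazin (Cacng2) is the main TARP of granule cells, and Bergmann glia are known for receptors of GluA1 and GluA4 without GluA2.

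The Q/R codon, which is edited in Gria2, is shown for the 4 subunits, since it is where the calcium permeability of the receptor is set. Each line gives 45 coding bases of the spliced transcript (GENCODE vM21, GRCm38) with this codon in capitals.
Gria1 (codon at chr11:57243094-57243096, plus strand, exon 11): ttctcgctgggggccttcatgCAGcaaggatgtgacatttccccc
Gria2 (codon at chr3:80706911-80706913, minus strand, exon 11): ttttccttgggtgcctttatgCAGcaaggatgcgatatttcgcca
Gria3 (codon at chrX:41610265-41610267, plus strand, exon 11): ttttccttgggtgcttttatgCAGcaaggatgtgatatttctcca
Gria4 (codon at chr9:4464137-4464139, minus strand, exon 12): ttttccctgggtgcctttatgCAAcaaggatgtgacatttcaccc
The genome encodes glutamine here in all 4 genes, as CAG in Gria1, Gria2 and Gria3 and as CAA in Gria4. In Gria1, Gria3 and Gria4 36, 42 and 39 of the 45 bases are those of Gria2. Editing itself cannot be read from counts per gene.

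On GRCm38 the GluA genes are annotated as long multi-exon genes, with Gria1 at chr11:57011387-57330244 (plus strand), Gria2 at chr3:80681450-80802835 (minus strand), Gria3 at chrX:41400854-41678601 (plus strand) and Gria4 at chr9:4417896-4796234 (minus strand). The TARP genes are Cacng2 at chr15:77991748-78120028 (minus strand), Cacng3 at chr7:122670492-122769393 (plus strand) and Cacng8 at chr7:3390683-3415648 (plus strand). The other auxiliary subunits are Gsg1l at chr7:125878420-126082411 (minus strand), Cnih2 at chr19:5092868-5098521 (minus strand) and Cnih3 at chr1:181352628-181460641 (plus strand), of which Cnih2 is the shortest of the 10 genes at 5.65 kb.

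The SCA1 KI cerebellar libraries were the deepest, with 36222298 to 51311309 reads on genes (median 41954484), where those of WT cerebellum held 29520855 to 38335590 (median 31075395). In the cortex the medians were 35082927 in WT and 37115227 in SCA1 KI. In normalized values 1 read was worth 0.687 to 1.22 normalized counts, so that the lowest member value (135 normalized counts, Cnih3) rested on well over 100 reads. Replicates differed beyond sampling noise, and no library was a copy of another. In the cortex Atxn1 itself had normalized counts of 8147, 7443 and 6521 in WT libraries and 4604, 7249 and 6267 in SCA1 KI libraries, and these ranges overlapped (LFC −0.31, limma adjusted p = 0.132). In the cerebellum the WT libraries held 3628 to 3737 and the SCA1 KI libraries 3717 to 4138 normalized counts of Atxn1 (LFC 0.08, adjusted p = 0.837). Counts per gene do not show the length of the repeat.

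Levels by region are set out first, since the genotype changes start from them. In the WT cortex Cnih2 had the highest level per kb of exon among the 10 genes (5165 ± 536 normalized counts per kb, SD, n = 3), followed by Gria1 (2262 ± 313), Gria2 (2055 ± 191) and Cacng3 (1883 ± 46), of which Gria1 and Gria2, and Gria2 and Cacng3, overlapped between libraries. In the WT cerebellum Gria1 (4075 ± 72 normalized counts per kb) and Gria4 (3687 ± 207) stood above the rest, with ranges that did not overlap, and Gria2 came next at 1039 ± 32. Cacng3 was the lowest there, at 123 ± 18 normalized counts per kb. The rank of Gria2 depends on the length used, since its annotated exons are long (15548 bases beside 6043 for Gria1). Per coding length Gria2 held 49.1% of the sum of the 4 GluA genes in WT cortex, and Gria1 20.7%. In WT cerebellum Gria2 held 23.1% on this scale, below Gria1 (34.8%) and Gria4 (32.6%). All 10 genes were DEGs between WT cortex and WT cerebellum, that is, the absolute LFC exceeded 0.25 at an adjusted p below 0.05 (limma on log2(normalized count + 1)), beside 61.7% of all tested genes. Of the 10, 7 were higher in the cortex (31% of tested genes were) and 3 were lower (30.7%). Cacng3 led the former with an LFC of 3.94 (15.3-fold between the means), ahead of Cnih3 (2.91), Cacng8 (2.63), Gsg1l (2.58), Cnih2 (2.38), Gria3 (1.04) and Gria2 (0.98). Gria4 (−1.98), Gria1 (−0.86) and Cacng2 (−0.45) were lower in the cortex. These folds carry the difference between experiments with them.

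**Figure D1:**
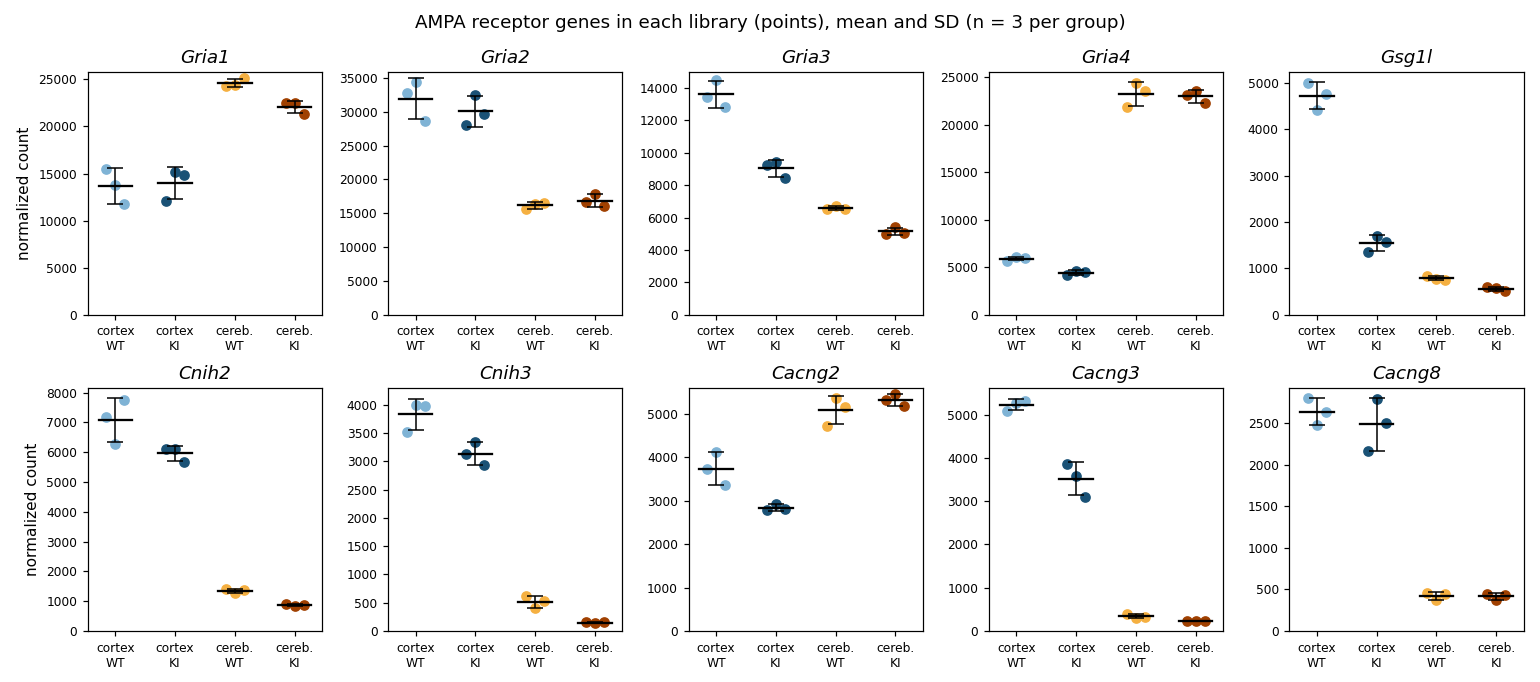
Normalized count of each of the 10 genes in every library (points), with the mean (bar) and SD (whiskers) of the 3 libraries in each group and axes starting at 0. Gria3, Gsg1l and Cacng3 are lower in the SCA1 KI libraries of both regions, Gria4 and Cacng2 are lower in the SCA1 KI cortex and overlap between the genotypes in the cerebellum, and Cnih3 falls from 516 to 151 normalized counts in the cerebellum.

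Of the GluA subunits, Gria3 and Gria4 were lower in the SCA1 KI cortex whereas Gria1 and Gria2 did not pass the test. Gria3 had 13474, 14522 and 12822 normalized counts in WT libraries B, C and D, and 9239, 9433 and 8461 in SCA1 KI libraries A, E and F. The ranges did not overlap, and the mean fell by 33.5%, with an LFC of −0.59 (95% interval −0.72 to −0.45, adjusted p = 5.27e-05 from limma). Gria4 had 5693, 6061 and 5967 normalized counts in WT libraries and 4220, 4656 and 4465 in SCA1 KI libraries. Again every SCA1 KI library lay below every WT library (LFC −0.41, 95% interval −0.54 to −0.28, adjusted p = 4.45e-04). Gria1 spread widely within both genotypes, from 11718 to 15490 normalized counts in WT and from 12057 to 15166 in SCA1 KI, and its LFC of 0.04 had a 95% interval of −0.18 to 0.25. Gria2, the most heavily counted subunit, ranged from 28671 to 34461 in WT and from 27995 to 32451 in SCA1 KI (LFC −0.09, 95% interval −0.25 to 0.08). An LFC of Gria2 as low as that of Gria3 lay outside this interval.

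Gsg1l, the auxiliary subunit that dampens the receptor, had the largest cortical change of the 10. It had 4999, 4425 and 4752 normalized counts in WT libraries B, C and D, and 1357, 1708 and 1566 in SCA1 KI libraries A, E and F. The SCA1 KI mean was 32.7% of the WT mean (LFC −1.62, 95% interval −1.81 to −1.42), a value given as a description because this contrast led to the choice of the genes. Per kb of exon, Gsg1l moved from rank 7 of the 10 genes in WT to rank 10 in SCA1 KI cortices. Among all 15368 other tested genes, those with the most similar profile to Gsg1l over the 12 libraries were C130074G19Rik, Coch and Tle6, with root mean square differences of 0.24, 0.26 and 0.27 on the log2 scale after centring each gene. The nearest of the 10 genes, Cnih2, was at rank 362. Tle6 is weakly counted, with a mean of 187 (WT cortex) and 43.1 (WT cerebellum).

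Among the TARPs, Cacng2 and Cacng3 were lower in the SCA1 KI cortex and Cacng8, the TARP best known from the hippocampus, did not pass the test. Cacng3 had 5085, 5279 and 5324 normalized counts in WT libraries and 3867, 3593 and 3106 in SCA1 KI libraries. No library overlapped, and the mean fell by 32.6% (LFC −0.58, 95% interval −0.80 to −0.36, adjusted p = 0.00193). Cacng2 had 3742, 4123 and 3365 normalized counts in WT and 2782, 2929 and 2817 in SCA1 KI. These too lay apart (LFC −0.39, 95% interval −0.55 to −0.23, adjusted p = 0.00262). Cacng8 had 2799, 2476 and 2635 normalized counts in WT against 2161, 2791 and 2498 in SCA1 KI, which overlapped (LFC −0.09, 95% interval −0.33 to 0.15). The cornichons were lower in every SCA1 KI cortex library without passing both thresholds. Cnih2 ranged from 6293 to 7751 in WT and from 5676 to 6120 in SCA1 KI, and its adjusted p of 0.0470 came with an LFC of −0.24, just under the limit of 0.25 in size. Cnih3 ranged from 3521 to 3997 in WT and from 2933 to 3340 in SCA1 KI (LFC −0.29, adjusted p = 0.160).

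In all, 5 of the 10 genes were DEGs in the cortex, each lower in SCA1 KI. Of all tested genes 15.6% were DEGs there, 10.8% lower and 4.82% higher. The median LFC of the 10 genes was −0.34 beside −0.003 over all tested genes. For 7 of the 10 the highest SCA1 KI library was lower than the lowest WT library, which held for 18% of tested genes.

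In the cerebellum the pattern of changes was another one: both cornichons fell, together with Gsg1l, Gria3 and Cacng3. Cnih3 had 615, 399 and 532 normalized counts in WT libraries 2, 4 and 6, and 157, 135 and 160 in SCA1 KI libraries 1, 3 and 5. The lowest WT library was thus far above the highest SCA1 KI library, and the mean was 3.42-fold lower (LFC −1.75, 95% interval −2.04 to −1.47, adjusted p = 1.17e-05 from limma). Cnih2 had 1415, 1284 and 1369 normalized counts in WT and 920, 841 and 883 in SCA1 KI. It too showed no overlap (LFC −0.62, 95% interval −0.79 to −0.46, adjusted p = 4.41e-04). Cacng3 had 396, 296 and 334 normalized counts in WT and 227, 229 and 228 in SCA1 KI. The SCA1 KI libraries were nearly identical for this gene, all below WT (LFC −0.57, 95% interval −0.79 to −0.35, adjusted p = 0.00546). Gsg1l had 843, 766 and 756 normalized counts in WT and 589, 572 and 518 in SCA1 KI, a fall of 29.0% in the mean (LFC −0.49, 95% interval −0.69 to −0.30, adjusted p = 0.00632). Gria3 had 6532, 6712 and 6543 normalized counts in WT and 5000, 5417 and 5050 in SCA1 KI, a fall of 21.8% (LFC −0.36, 95% interval −0.49 to −0.22, adjusted p = 0.00467).

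The 3 subunits with the highest cerebellar level per kb, Gria1, Gria4 and Gria2, did not pass the test, nor did Cacng2 and Cacng8. Gria4 ranged from 21821 to 24382 normalized counts in WT and from 22249 to 23564 in SCA1 KI, and its LFC of −0.02 had a 95% interval of −0.14 to 0.11. Stargazin (Cacng2) ranged from 4734 to 5364 in WT and from 5191 to 5463 in SCA1 KI (LFC 0.07, 95% interval −0.09 to 0.23). Gria1 was the one gene whose libraries lay apart without a call, at 24306 to 25122 in WT and 21339 to 22486 in SCA1 KI (LFC −0.16, adjusted p = 0.478). Gria2 (LFC 0.06, 95% interval −0.10 to 0.23) and Cacng8 (LFC −0.03, 95% interval −0.27 to 0.22) overlapped between the genotypes. Thus 5 of the 10 genes were DEGs in the cerebellum and all were lower, beside 5.36% of tested genes that were DEGs, 4.44% lower and 0.917% higher. The median LFC of the 10 was −0.26 beside −0.005 over all tested genes, and for 6 of the 10 the SCA1 KI libraries were all under the WT range (17.5% of tested genes).

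**Figure D2:**
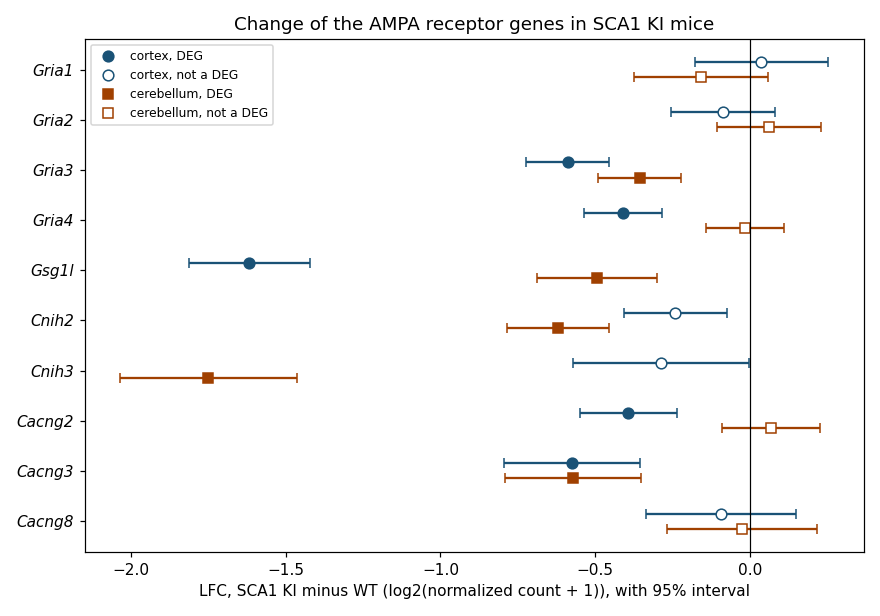
LFC (SCA1 KI minus WT, on log2(normalized count + 1)) of the 10 genes in cortex (circles) and cerebellum (squares), with 95% intervals from limma, where filled symbols are DEGs. Gsg1l is the lowest in cortex at −1.62 and Cnih3 the lowest in cerebellum at −1.75, while Cacng3 has nearly the same LFC in both.

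Across the regions, 3 genes (Gria3, Gsg1l and Cacng3) were lower in both, 2 passed in the cortex alone (Gria4 and Cacng2), 2 in the cerebellum alone (Cnih2 and Cnih3), and 3 in neither. The difference between the regions was tested as the interaction of region and genotype, which passed at an adjusted p under 0.05 for 5 of the 10 genes, Gsg1l among them, beside 8.15% of tested genes. For Gsg1l the difference in LFC was −1.12 (95% interval −1.40 to −0.85), given with no p because it contains the cortical LFC that led to the choice of the genes. The cortical change was also the lower of the 2 for Cacng2 (difference in LFC −0.46, 95% interval −0.68 to −0.24, adjusted p = 0.0156) and Gria4 (−0.39, −0.57 to −0.22, adjusted p = 0.0111). It was the higher for Cnih3 (1.46, 1.06 to 1.87, adjusted p = 7.92e-04) and Cnih2 (0.38, 0.15 to 0.61, adjusted p = 0.0485), and the last of these passed narrowly. Without cortex WT library B and cerebellum WT library 2, which stood apart in marker genes, Cnih2 (adjusted p = 0.122) and Cacng2 (adjusted p = 0.0548) no longer passed. Cacng3 had nearly the same LFC in both regions, with a difference of −0.004 (95% interval −0.32 to 0.31), and for Gria3 the difference of −0.23 did not pass (adjusted p = 0.139). The ratio between the regions differed accordingly between the genotypes. Gsg1l was 6.00-fold higher in WT cortex than in WT cerebellum but 2.76-fold higher in SCA1 KI, whereas for Cnih3 the same ratio went from 7.43 to 20.8.

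The mix of GluA transcripts was compared next, as the share of each subunit. Per kb of exon, Gria3 made up 20.8% ± 1.0 (SD, n = 3) of the summed GluA level in WT and 15.7% ± 1.5 in SCA1 KI cortices. Gria4 went from 14.2% ± 1.4 to 12.0% ± 0.33, Gria2 from 31.0% ± 0.87 to 32.9% ± 0.58 and Gria1 from 34.0% ± 2.6 to 39.4% ± 2.2. The libraries lay apart for Gria2, Gria3 and Gria4 (exact permutation p = 0.1, the smallest that 3 against 3 libraries allow) and overlapped for Gria1 (exact permutation p = 0.2). In the cerebellum the Gria3 share went from 7.07% ± 0.17 to 5.87% ± 0.19 and the Gria2 share from 11.0% ± 0.057 to 12.2% ± 0.33. The Gria1 share, at 43.0% ± 1.0 in WT, fell by 2.01 percentage points and the Gria4 share went from 38.9% ± 1.1 to 40.9% ± 0.079, each against its direction in the cortex. The libraries lay apart for all 4 (exact permutation p = 0.1 for each). The share of Gria2 depends on the length it is divided by, since its annotated exons are long (15548 bases beside 6043 for Gria1). Per coding length its cortical share was 49.1% in WT and 52.4% in SCA1 KI, and its cerebellar share 23.1% and 25.4%. For Cacng2, Cacng3 and Cacng8, the cortical sum per kb was 3687 ± 31 normalized counts in WT and 2843 ± 162 in SCA1 KI. Cacng8 went from 30.5% to 37.2% of this sum (exact permutation p = 0.1 for the sum and for this share). In the cerebellum the sum of the same genes was 1228 ± 26 in WT and 1227 ± 14 in SCA1 KI, and Cacng2 held 75.2% and 78.8% of it. Other TARP genes were left out of this sum. In WT cerebellum Cacng7, Cacng5 and Cacng4 averaged 4974, 2894 and 490 normalized counts, not divided by length, beside 5087 for Cacng2. The cortical means of Cacng7, Cacng5 and Cacng4 were 4207, 498 and 447 in WT and 4071, 670 and 448 in SCA1 KI. None of these genes was a DEG in the cortex.

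**Figure D3:**
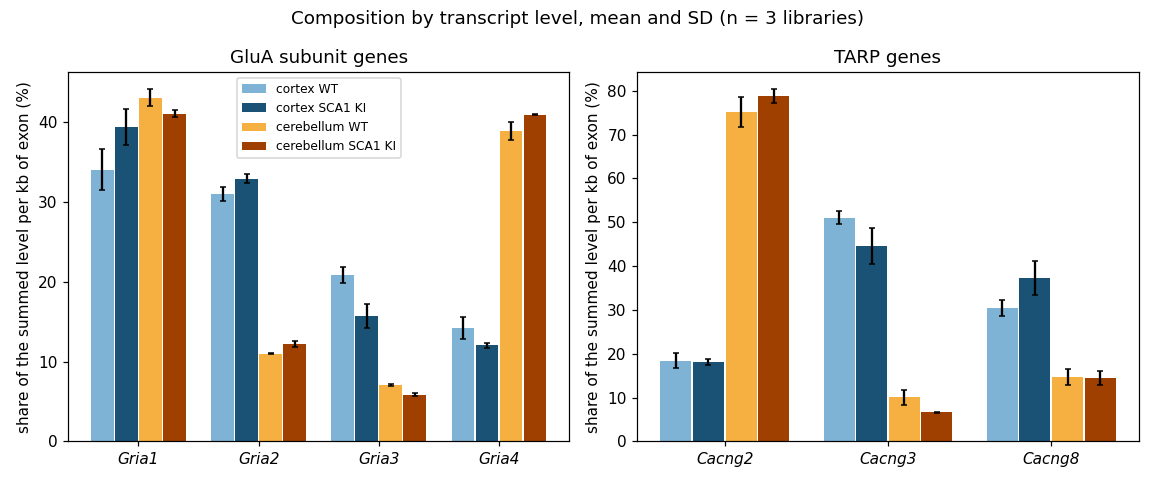
Share of each gene in the summed level per kb of exon, for the 4 GluA genes (left) and the 3 TARP genes (right), as mean and SD of 3 libraries in each group, with axes from 0. The Gria3 share is lower in SCA1 KI in both regions, and of the 3 TARP genes shown Cacng2 holds most of the cerebellar sum.

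Markers of other tissues and cells moved with the genotype in both regions, and their part in the changes above was not tested. In the cortex the summed level of 5 genes of all neurons was 303953 to 323448 normalized counts in WT and 218322 to 236108 in SCA1 KI (72.4% of WT, 3 of 5 genes lower as DEGs). Snap25 made up the largest part of this sum and stood at 64.0% of WT, whereas single genes of the list ranged from 60.9% (Rbfox3) to 104% (Tubb3). The sum of 6 forebrain neuron genes was 33571 to 35887 in WT and 20577 to 24910 in SCA1 KI (67.0%, none of the 6 a DEG). The astrocyte sum stood at 60.4% of WT and was mostly Slc1a2 (58.4%), while the other 4 astrocyte genes were at 67.6% to 80.8%. Midbrain genes summed to 169 to 286 normalized counts in WT libraries and 791 to 1517 in SCA1 KI libraries, with 3 of 7 called higher and Shox2 at 0 in all WT libraries. The 5 cortical DEGs ranged from 32.7% of WT (Gsg1l) to 75.9% (Cacng2), and Gria2 stood at 94.1% and Gria1 at 103%.

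In the cerebellum the all-neuron sum was 97.7% of WT, and the granule cell sum overlapped between the genotypes. The sum of 7 thalamus genes, however, was 8087 to 13073 normalized counts in WT and 4442 to 4759 in SCA1 KI, with 4 of 7 lower as DEGs. That of 7 midbrain genes was 1425 to 1724 in WT and 782 to 1060 in SCA1 KI, with 4 of 7 lower as DEGs. Within these lists Tcf7l2 averaged 1979 normalized counts in WT and 227 in SCA1 KI, Slc17a6 4531 and 1136, and Shox2 172 and 4.63. Single genes of the thalamus list ranged from 11.5% of WT (Tcf7l2) to 100% (Synpo2). Those of the midbrain list ranged from 2.70% (Shox2) to 105% (Otx2). No gene of these lists was at 0 in all libraries of a group. Cnih3, Cnih2 and Cacng3, like the thalamus sum, were highest in WT library 2 and lowest of the WT libraries in library 4. The same order held for 65.3% of the 683 genes lower in the SCA1 KI cerebellum and for 23% of all tested genes. Gsg1l and Gria3 did not follow it. Library 2 also had 1188 normalized counts of forebrain neuron genes, where the other 2 WT libraries had 414 and 468 and the SCA1 KI libraries 454 to 584. Library 2 was left out together with cortex WT library B. The cerebellar LFC was then −1.61 for Cnih3, −0.59 for Cnih2, −0.46 for Cacng3, −0.44 for Gsg1l and −0.36 for Gria3. All 5 remained DEGs. WT library 4, which stayed in this fit, had the lowest WT sums, 8087 for thalamus genes and 1425 for midbrain genes. Both were still above every SCA1 KI library, so the fit does not remove the difference in these sums. Whether the 5 falls depend on that difference was not tested. Other sums that lay below WT without overlap were those of oligodendrocyte genes (163466 to 250154 in WT, highest in library 2, and 139174 to 139535 in SCA1 KI, or 70.2% of WT), hippocampus genes (54.2%), Purkinje cell genes (76.6%), striatum genes (77.6%), astrocyte genes (79.5%), oligodendrocyte precursor genes (80.6%), microglia genes (82.3%) and interneuron genes (84.0%). Bergmann glia genes were at 96.8% and overlapped. The interneuron list held genes of forebrain interneurons, and its cerebellar sum was mostly Pvalb (84.7% of WT) and Gad2 (88.6%). Single genes of it ranged from 1.52% (Vip) and 9.68% (Sst) to 107% (Lhx6), with 3 of 6 lower as DEGs. Likewise the striatum sum was mostly Ppp1r1b (75.7%), in a list that ranged from 11.3% (Drd2) to 122% (Rgs9). The choroid plexus sum varied within both genotypes, from 19401 to 72198 in WT and from 821 to 75165 in SCA1 KI.

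**Figure D4:**
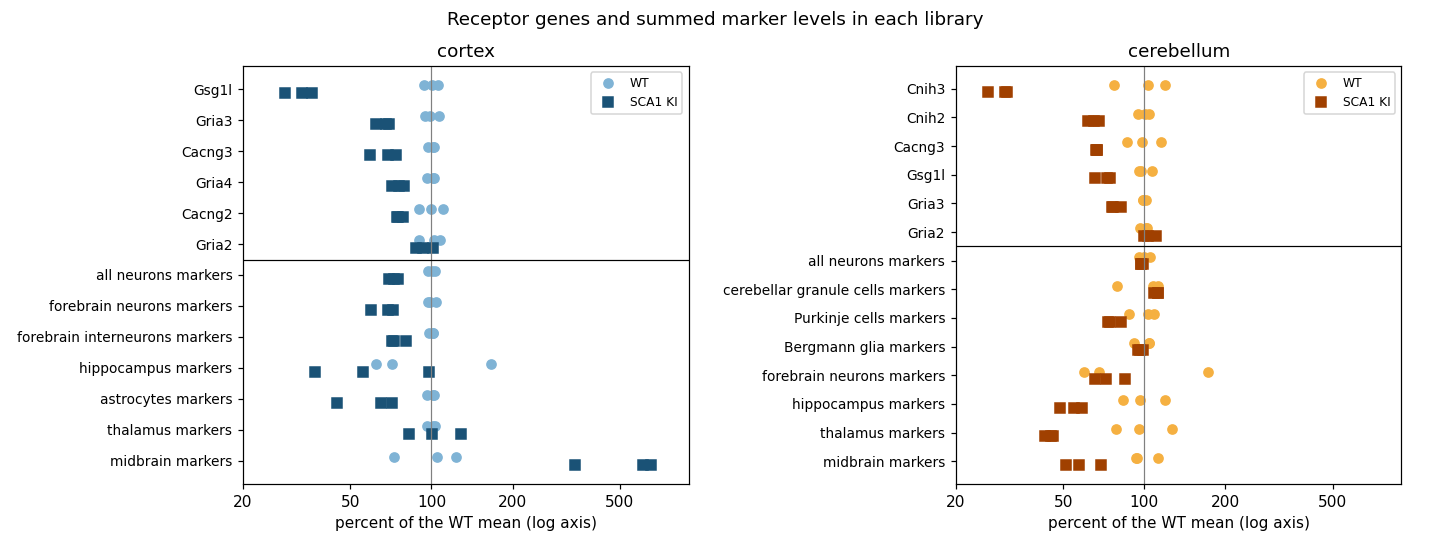
Each library as a percent of the WT mean of its region (log axis), for 6 receptor genes per region (above the line) and summed marker lists (below it), with WT as circles and SCA1 KI as squares. In the cortex the all-neuron sum is at 72.4% and the midbrain sum at 534% of WT, and in the cerebellum the thalamus sum is at 44.6% and the midbrain sum at 59.1%.

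The proteins that assemble, anchor and modify AMPA receptors were followed in 3 lists with 44 genes, none of them among the 10, of which 43 were in the table and tested. In the cortex 15 of the 43 were lower and 1 was higher as DEGs, where 10.8% of all tested genes were lower and 4.82% higher, and the median LFC of the listed genes was −0.25 beside −0.003 over all tested genes. Among 21 other auxiliary and assembly genes, 7 fell. These were Nrn1 (LFC −1.01), Olfm1 (−0.89), Prrt2 (−0.61), Syndig1 (−0.54), Olfm3 (−0.54), Abhd6 (−0.51) and Frrs1l (−0.37). Olfm1 and Olfm3 encode secreted noelins that anchor the receptor, Syndig1 and Frrs1l act in its assembly and delivery, and Abhd6 holds back its surface delivery. Nrn1, which encodes the neurite growth factor neuritin, had 11659 to 14211 normalized counts in WT and 5926 to 6959 in SCA1 KI. Cpt1c, which assists receptor export from the endoplasmic reticulum, was the gene that rose (LFC 0.30, adjusted p = 0.0163), and it lost its call without WT library C (adjusted p = 0.0629) or D (adjusted p = 0.0575).

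Of 19 anchoring and trafficking genes, 7 fell in the cortex and none rose. Arc, an activity-induced gene whose product drives receptor endocytosis, had 9641, 14995 and 8367 normalized counts in WT and 4176, 4421 and 3654 in SCA1 KI (LFC −1.39, adjusted p = 1.97e-04). Nptxr, the membrane-bound neuronal pentraxin that clusters receptors, had 5220, 5359 and 6195 in WT and 2124, 2896 and 2339 in SCA1 KI (LFC −1.20). The scaffolds Dlg4 (PSD-95, LFC −0.52, adjusted p = 1.23e-04) and Dlg1 (SAP97, −0.32) and their partners Akap5 (−0.67), Epb4.1l1 (−0.55) and the motor Myo6 (−0.32) made up the rest. Akap5 did not pass without SCA1 KI library A (adjusted p = 0.060) or WT library C (adjusted p = 0.0739), Dlg1 not without WT library C (adjusted p = 0.0538), and Myo6 came under the LFC limit without SCA1 KI library A (LFC −0.21) and did not pass with the cortex fitted on its own (adjusted p = 0.0757). Of the editing enzymes, Adarb1 had 12076, 11780 and 11645 normalized counts in WT and 6888, 8494 and 9301 in SCA1 KI. It fell without overlap (LFC −0.54, adjusted p = 0.00106), whereas Adar (LFC −0.07, adjusted p = 0.567) and Adarb2 (LFC −0.32, adjusted p = 0.204) did not pass.

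In the cerebellum 7 of the 43 listed genes were lower and none was higher (4.44% and 0.917% of all tested genes), with a median LFC of −0.08 beside −0.005 over all tested genes. None of the 7 was a DEG in the cortex. Nptx2, a secreted pentraxin that gathers AMPA receptors on interneurons, had 224, 83.1 and 148 normalized counts in WT and 27.0, 25.4 and 34.9 in SCA1 KI (LFC −2.24, adjusted p = 0.00147). Vwc2l, a secreted receptor-associated protein, had 220, 68.4 and 121 in WT and 19.4, 24.0 and 40.7 in SCA1 KI (LFC −2.15, adjusted p = 0.00268). Both were weakly counted in the cerebellum. All 7 genes were highest in WT library 2 and lowest of the WT libraries in library 4, in the order of the thalamus sum, as were 65.3% of the 683 genes lower in the SCA1 KI cerebellum and 23% of all tested genes. Lrrtm4, a postsynaptic adhesion protein, went from 450 to 223 normalized counts (LFC −0.98), Vwc2 from 231 to 118 (−0.92), and the scaffold Grip2 from 722 to 391 (−0.86). Shisa9 (−0.49) and Shisa7 (−0.56), auxiliary subunits of another family, completed the group. The call of Shisa7 was lost in 7 of the 12 fits that each left out 1 library (adjusted p = 0.182 without WT library 2), and that of Vwc2 without SCA1 KI library 1 (adjusted p = 0.0679) or WT library 6 (adjusted p = 0.0519). Shisa7 was also lost after centring each region on its median (adjusted p = 0.0537) and Vwc2 with the cerebellum fitted on its own (adjusted p = 0.0537). Without cortex WT library B and cerebellum WT library 2 neither Shisa7 (adjusted p = 0.0908) nor Vwc2 (adjusted p = 0.0522) passed. Adarb1 did not pass in the cerebellum (LFC 0.03, adjusted p = 0.912), nor did Adar (−0.08, adjusted p = 0.639) and Adarb2 (−0.29, adjusted p = 0.385). The interaction of region and genotype passed for 13 of the 43, beside 8.15% of all tested genes. The cortical change was the lower for Nrn1, Olfm1, Olfm3, Syndig1, Frrs1l, Dlg4, Arc, Nptxr and Adarb1, and the higher for Vwc2, Vwc2l, Lrrtm4 and Grip1. Several of these interactions were lost with 1 library left out: Dlg4 without library 1, Grip1 without 1, 5 or F, Lrrtm4 without 1, 3, 5, 6, C or E, Vwc2 without 1, 3, 6, B, D or F, Olfm3 without 1, 3, 5, 6, A, B, C or F, and Syndig1 without any library other than 4 or A. Syndig1 did not pass in edgeR either (adjusted p = 0.0621). With cortex WT library B and cerebellum WT library 2 left out together, 7 of the 13 were lost: Adarb1 (adjusted p = 0.0506), Lrrtm4 (0.0629), Grip1 (0.0732), Dlg4 (0.0778), Olfm3 (0.0841), Vwc2 (0.0922) and Syndig1 (0.121).

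**Figure D5:**
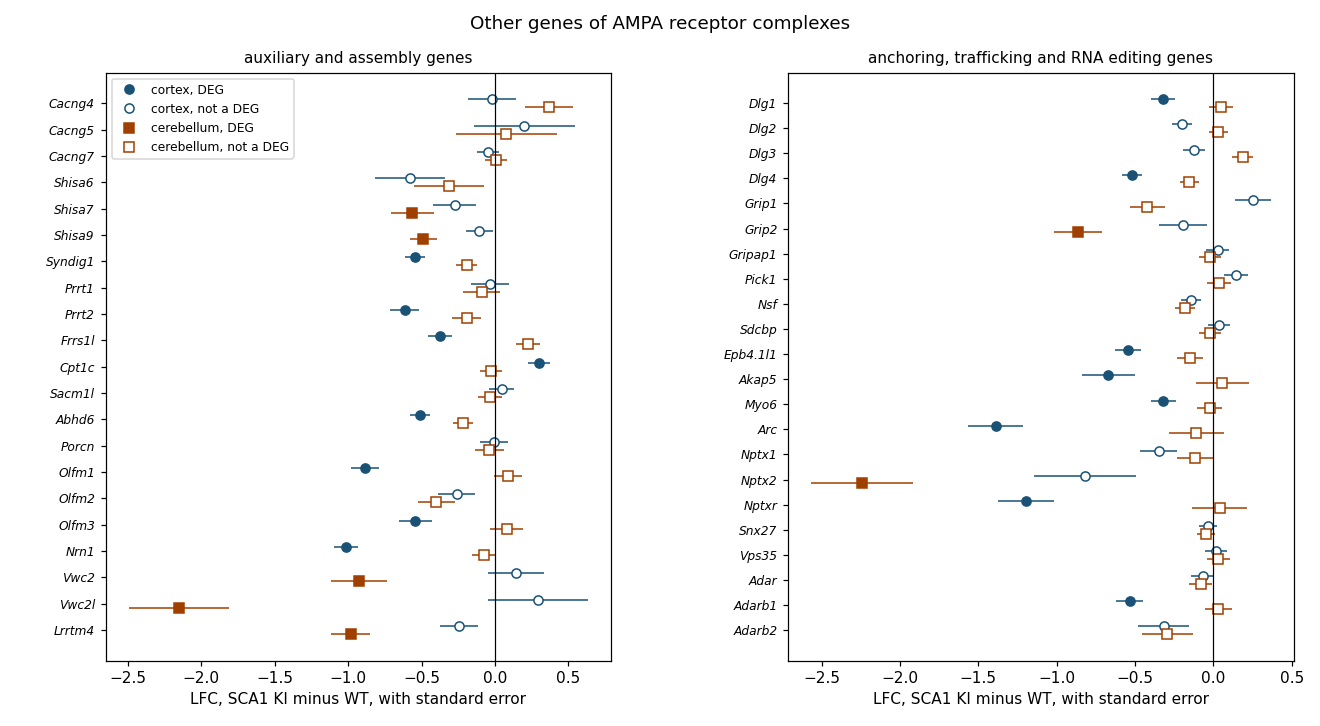
LFC (SCA1 KI minus WT) with standard error for the 43 listed genes that are not among the 10, in cortex (circles) and cerebellum (squares), where filled symbols are DEGs. Arc, Nptxr, Nrn1 and Olfm1 are the lowest cortical DEGs, at −1.39, −1.20, −1.01 and −0.89, and Nptx2 and Vwc2l the lowest cerebellar ones, at −2.24 and −2.15.

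Ataxin-1 acts on transcription together with the repressor Capicua, which binds short octamers, so the promoters of the genes were searched for these. RefSeq promoters (GRCm38.p6, 250 bases before to 50 after the start) were searched for 6 of the 10 genes: Gria2, Gria4, Cnih2, Cnih3, Cacng2 and Cacng8. None of the 6 held TGAATGAA, TGAATGGA, TCAATGAA or TCAATGGA on either strand, and 3.84% of all 32851 promoters of that length did. This says only that these letters are not in these windows. The windows of Cacng2 (chr15:78119231-78119530) and Cacng8 (chr7:3393792-3394091) lay inside the gene positions given above, and do not cover the starts annotated there. The promoter of Cnih3, which had the lowest LFC of the 10 genes, is given with CpG dinucleotides in capitals.
Cnih3 (chr1:181352378-181352677, plus strand): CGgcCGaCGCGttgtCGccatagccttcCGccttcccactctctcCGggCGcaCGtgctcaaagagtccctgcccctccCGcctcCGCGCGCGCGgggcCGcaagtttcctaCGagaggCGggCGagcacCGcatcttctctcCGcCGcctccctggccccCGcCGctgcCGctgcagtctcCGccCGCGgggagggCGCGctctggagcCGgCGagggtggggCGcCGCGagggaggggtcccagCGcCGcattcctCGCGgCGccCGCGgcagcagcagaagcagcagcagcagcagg
The Cnih3 window held 42 CpG at 75.3% GC, where the median promoter had 7 CpG at 52.7% GC. Gria1, Gsg1l, Cnih3 and Cacng3 share exons with no other annotated gene, whereas exons of Cnih2 overlap Yif1a and those of Cacng2 overlap A730060N03Rik on the opposite strand, and some of their reads could belong to those genes. Gria2, Gria3, Gria4 and Cacng8 overlap 1 small predicted gene each, on their own strand.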

How the data were processed

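The 12 libraries were made from poly-adenylated RNA, 3 per group of region and genotype. Per the labels and the study's methods, the authors aligned paired-end reads with STAR to mm10, obtained gene counts from featureCounts and scaled these in DESeq2. Versions are not given in the sources used here. The deposited signal is therefore the normalized count, which came out as whole reads in 100% of values (tolerance 0.01). Whether strand was used in counting is not stated. Columns name region, genotype and a letter or digit, but no replicate of the labels, and the labels list male mice where the methods describe both sexes combined. Nothing states how many litters the mice came from, so p-values measure the spread between these libraries.

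The main test was limma 3.58.1 (R 4.3.3) for the 15369 genes whose mean reached 10 normalized counts (390 did not), on log2(normalized count + 1), with 4 group means over 12 libraries. This scale understates folds of weakly counted genes. Adjusted p are Benjamini-Hochberg values over all tested genes, and a DEG needed an adjusted p below 0.05 as well as an absolute LFC exceeding 0.25, while the interaction used adjusted p under 0.05. Alternatives were 2 pseudocounts (0.5 and 5), a minimum mean of 100 or none, each region on its own, centring, removal of the trend on length and GC content, edgeR 4.0.16, DESeq2 1.42.0, no LFC limit or a limit of 1, and leaving out each library. Leaving out cortex WT library B and cerebellum WT library 2 together was added after seeing the data. Shares were compared by 2-sided exact permutation tests. Exon lengths, positions and overlaps came from GENCODE vM21 (GRCm38), promoters from RefSeq. The script was tested on simulated data.

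The members, pathway lists and marker lists were chosen with earlier results of these data known. Genes named are the 10 members, all editing enzymes, listed genes that passed in a genotype comparison or the interaction, the 3 genes most like Gsg1l, Atxn1, and markers. Marker genes singled out were chosen after their values were seen. Epb41l1 and Drd1 stand in the table as Epb4.1l1 and Drd1a, and Shisa8 was not analysed here. One listed gene and one promoter are not reported here.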

Additional observations from a re-analysis of the deposited data

Results flagged for a closer look

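In 5 of the 10 genes the cortical and the cerebellar change differed by the test of region and genotype (limma, 12 libraries). The difference in LFC, cortex minus cerebellum, was −1.12 for Gsg1l, −0.46 for Cacng2, −0.39 for Gria4, 1.46 for Cnih3 and 0.38 for Cnih2. Cnih2 is the least stable of these: its adjusted p of 0.0485 passed no longer in 10 of the 12 fits that each left out 1 library, where it reached up to 0.126. For Cnih3, Gria4 and Cacng2 the largest adjusted p with 1 library left out was 0.00301, 0.0389 and 0.0476. No p is given for Gsg1l, since its cortical LFC led to the choice of the genes. The regions come from separate experiments, which cannot be told apart from the tissues in this test.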

How the results depend on the processing

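The counts of genes that passed rested mainly on the LFC limit. With a limit of 1, 1 of the 10 genes passed in the cortex (Gsg1l) and 1 in the cerebellum (Cnih3), and of the listed genes 3 passed in the cortex and 2 in the cerebellum. Under the other settings the counts of the 10 genes were 5 or 6 in the cortex and 5 in the cerebellum, since Cnih2 passed in the cortex without an LFC limit or without WT library C. No LFC that passed changed sign under any setting run. With cortex WT library B and cerebellum WT library 2 left out together, the count for the interaction was 3 of the 10 genes. The rise in the share of Gria2 in the GluA level was 3.19 percentage points in the cortex and 2.27 in the cerebellum for reads not divided by length, and 3.22 and 2.29 per coding length, beside 1.95 and 1.21 per kb of exon. The cerebellar rise was 1.02 to 1.33 points with 1 SCA1 KI library left out. The cerebellar Gria3 share changed by −1.66 points for undivided reads and −1.69 per coding length, beside −1.20. No paired analysis was possible because the columns carry letters or digits of their own and no replicate number of the labels. With 3 libraries per group, no exact permutation test could go below 0.10.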
